A study of Trichoderma reesei with 9 samples.

Results

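The glycoside hydrolase family GH76 holds endo-α-1,6-mannanases, enzymes that cut within chains of α-1,6-linked mannose. Such chains form the backbone of the mannan that decorates fungal cell wall proteins and of the galactomannan on the outer wall of Ascomycota. In the yeast Saccharomyces cerevisiae, the GH76 proteins Dfg5 and Dcw1 are anchored at the cell surface and are needed to build the fungus's own wall, so the family is linked both to the digestion of foreign mannan and to wall assembly. The members described here are 4 GH76 genes of Trichoderma reesei RUT-C30, M419DRAFT_112243, M419DRAFT_126869, M419DRAFT_23689 and M419DRAFT_103113, out of 9849 genes in the count table. The annotation used here tags M419DRAFT_112243, M419DRAFT_126869 and M419DRAFT_103113 as GH76 and as mannan endo-1,6-α-mannosidases, while M419DRAFT_23689 has no entry in that annotation, a shortened copy, and was taken as GH76 as given with the set of members. The study showed these genes as differing among substrates, so their having a difference is not independent evidence. Which of them act on foreign mannan and which on the fungus's own wall is not known from these data, and other GH76 genes were not analysed here.

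T. reesei RUT-C30, a strain that carries a truncated cre1 gene and so lacks normal glucose repression, was grown for 7 days in Highley's medium with 1% (w/v) glucose, 0.45% (w/v) low melanin necromass or 0.45% (w/v) high melanin necromass. Necromass was freeze-dried mycelium of Hyaloscypha bicolor, and each melanin type was harvested in bulk, so the cultures of a substrate shared its necromass. Each substrate had 3 independent cultures, and mRNA selected by its poly(A) tail was sequenced from all 9. The substrates differed in amount as well as in kind. The study also warned that glucose and necromass cultures could have been compared at different growth phases, which was not tested. The necromass types were also grown in different volumes of medium and at different shaking speeds, and the study's chemistry gave them different shares of nitrogen-containing compounds and of sugars, so these and melanin cannot be told apart.

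Library totals ranged from 18074631 to 24635281 estimated counts, and all 4 GH76 genes were among the 9312 that reached 10 counts in 3 or more libraries and were tested. Levels are given as normalised counts per 1000000 (CPM), a share of the mRNA in a library, so more transcripts of a gene and fewer of all others cannot be told apart. Glucose replicate 1 stood apart from the other glucose libraries. Its counts differed from theirs by a chi-square of 307 and 350 per degree of freedom, whereas the other glucose libraries differed from each other by 42.8, and pairs within a necromass type by 11.7 to 54.2. The median coefficient of variation over all genes tested was 19.3% on glucose, against 8.31% and 7.86% on low and high melanin necromass. Adjusted p values below are Benjamini-Hochberg values over all genes tested, from the quasi-likelihood test of edgeR. A gene is called up- or down-regulated against glucose where the adjusted p is under 0.05 and the log2 fold change is 2 or more in either direction.

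Of the 4 GH76 genes, M419DRAFT_112243 was the most strongly up-regulated on necromass. Its level on glucose was 2.13, 1.57 and 1.08 CPM in replicates 1, 2 and 3, from 22 to 48 counts per library. On low melanin necromass it was 152, 138 and 181 CPM, and on high melanin necromass 102, 58.6 and 113 CPM. The substrates did not overlap. The lowest low melanin library lay 64.4-fold above the highest glucose library, and the lowest high melanin library 27.5-fold above it. The log2 fold change against glucose was 6.61 (SE 0.33, adjusted p = 1.74e-07) on low and 5.82 (SE 0.33, adjusted p = 2.45e-07) on high melanin necromass, or 97.5-fold and 56.6-fold. By size, these changes ranked 110 and 208 among the 9312 genes. The glucose level was 1.02% of the low melanin level. Of the 77 genes that reached 1000 CPM in the low melanin mean, the 10 with the lowest such share ranged from 0.272% to 0.306%, and whether reads from other libraries enter the glucose counts was not tested.

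M419DRAFT_126869 was also low on glucose and rose on both necromass types. Glucose libraries held 5.60, 3.76 and 5.17 CPM. Low melanin libraries held 72.9, 101 and 87.8 CPM and high melanin libraries 99.1, 89.9 and 65.8 CPM. Every necromass library lay at least 11.8-fold above every glucose library, while the ranges of the necromass types overlapped. The change against glucose was 17.97-fold on low (log2 4.17, SE 0.22, adjusted p = 2.32e-07) and 17.5-fold on high melanin necromass (log2 4.13, SE 0.22, adjusted p = 1.96e-07).

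M419DRAFT_23689 differed from both of these in having a sizeable level on glucose and its highest level on high melanin necromass. Glucose libraries stood at 39.0, 55.4 and 42.4 CPM. The gene stood at 165, 204 and 171 CPM in the low melanin libraries and at 311, 312 and 355 CPM in the high melanin libraries. The 3 substrates formed separate ranges in that order. Against glucose the level was 3.95-fold higher on low (log2 1.98, SE 0.15, adjusted p = 2.36e-06) and 7.15-fold higher on high melanin necromass (log2 2.84, SE 0.16, adjusted p = 2.47e-07). The low melanin change was significant but fell just short of the fold threshold, and its 95% interval ran from 1.64 to 2.33 on the log2 scale. It was past the threshold with upper-quartile scaling (2.04) and when glucose replicate 2 (2.14) or 1 of low melanin replicates 1 (2.04) and 3 (2.02) was left out.

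M419DRAFT_103113 went the other way, with its highest level on glucose. The glucose libraries held 311, 549 and 761 CPM, a 2.45-fold range from the lowest to the highest. On low melanin necromass it stood at 136, 120 and 131 CPM and on high melanin necromass at 100.1, 112 and 94.2 CPM. All necromass libraries lay below all glucose libraries, the highest low melanin library by 2.29-fold and the highest high melanin library by 2.77-fold. The gene was 4.19-fold lower on low (log2 −2.07, SE 0.27, adjusted p = 8.06e-05) and 5.29-fold lower on high melanin necromass (log2 −2.40, SE 0.27, adjusted p = 2.74e-05). Glucose replicate 1, the library that stood apart, was the lowest of the glucose cultures and replicate 3 the highest. Without glucose replicate 3 the low melanin change was −1.75 and no longer past the fold threshold, with an adjusted p of 0.0001201 by edgeR (6.669e-14 to 0.0009386 over the alternatives other than glmTreat). The low melanin change was −2.35 without glucose replicate 1 and −2.06 without glucose replicate 2, past the threshold in both fits. The part of differences among the glucose cultures in this change was not tested.

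**Figure D1:**
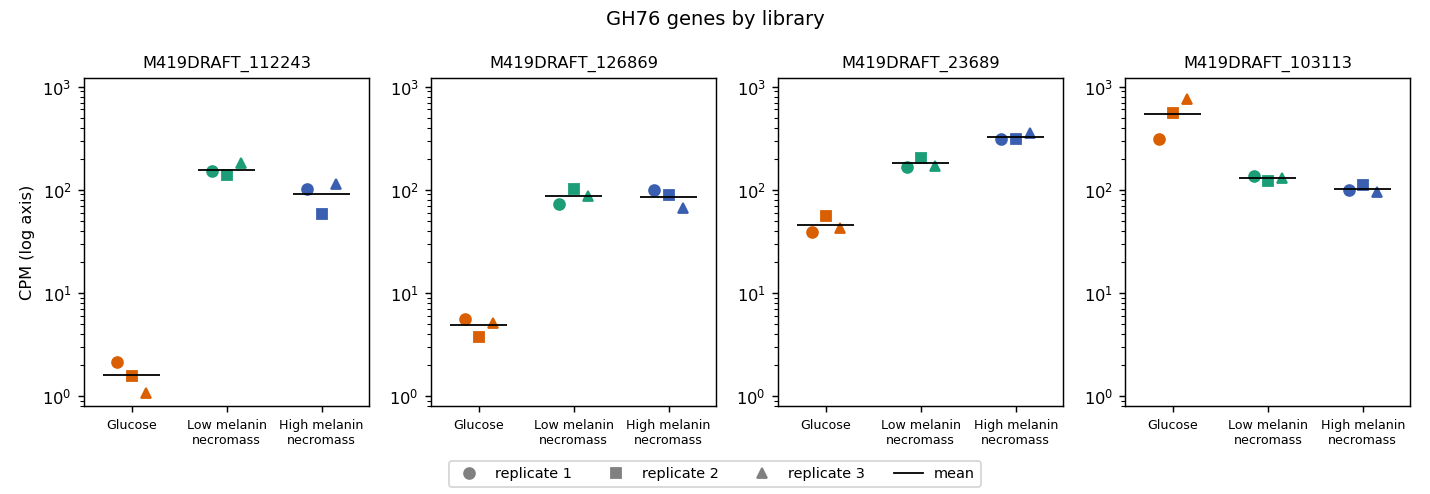
Level of each GH76 gene in the 9 libraries, in CPM on a log axis, with 1 symbol per replicate and a line at the mean of 3. M419DRAFT_112243, M419DRAFT_126869 and M419DRAFT_23689 lie higher in every necromass library than in any glucose library, and M419DRAFT_103113 lies lower.

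Low melanin necromass had 2 of the 4 genes called up and 1 down, and high melanin necromass 3 up and 1 down. The study had already shown these genes as differing in these data, so their distance from all genes follows in part from that choice. Of all genes tested, low melanin necromass had 12.0% called up and 7.18% down, and high melanin necromass 13.5% up and 8.80% down. The median log2 fold change of the 4 genes was 3.08 on low and 3.48 on high melanin necromass, beside 0.01 and 0.02 over all genes. Both comparisons use the same glucose libraries.

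The comparison of high with low melanin necromass asked whether the level of these genes differed between the necromass types, which differ in more than melanin. Of the 4 genes, 1 differed at an adjusted p under 0.05, M419DRAFT_23689, and it was higher on high melanin necromass. Over all genes 5.26% were higher and 3.93% lower at that threshold, and no GH76 gene was among the 0.870% of genes that also reached 2 on the log2 scale in either direction. M419DRAFT_23689 was 1.81-fold higher (log2 0.85, SE 0.15, 95% interval 0.52 to 1.19, adjusted p = 0.00885 by edgeR), and its lowest high melanin library lay 1.52-fold above its highest low melanin library. The call was lost when low melanin replicate 1 (0.79, adjusted p = 0.0526 by edgeR) or replicate 3 (0.82, adjusted p = 0.05115 by edgeR) was left out, and over the alternatives other than glmTreat the adjusted p ran from 1.542e-05 to 0.05261.

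M419DRAFT_112243 pointed the opposite way. All 3 high melanin libraries lay below all 3 low melanin libraries, the nearest by 1.21-fold, and the gene was 1.72-fold lower on average (log2 −0.78, SE 0.25, 95% interval −1.34 to −0.23, adjusted p = 0.0815 by edgeR). This did not pass the threshold in the fit of all libraries. It passed with DESeq2 (adjusted p = 0.03372), in edgeR's fit of only the necromass libraries (adjusted p = 0.02298) and in edgeR's fit without glucose replicate 1 (adjusted p = 0.01812). High melanin replicate 2 was the lowest necromass library for this gene, and without it the change was −0.54 (adjusted p = 0.198 by edgeR). Over all alternatives other than glmTreat its adjusted p ran from 0.01812 to 0.2857. For M419DRAFT_126869 the difference between necromass types was −0.04 on the log2 scale, with a 95% interval from −0.46 to 0.38 (adjusted p = 0.914 by edgeR). The difference of M419DRAFT_103113 was −0.34, with an interval from −0.93 to 0.25 (adjusted p = 0.458 by edgeR). Its high melanin libraries all lay below its low melanin libraries, the nearest by 1.07-fold, and the adjusted p was 0.0175 in edgeR's fit of only the necromass libraries, which leaves out the spread among the glucose cultures (0.0175 to 0.6793 over the alternatives other than glmTreat).

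**Figure D2:**
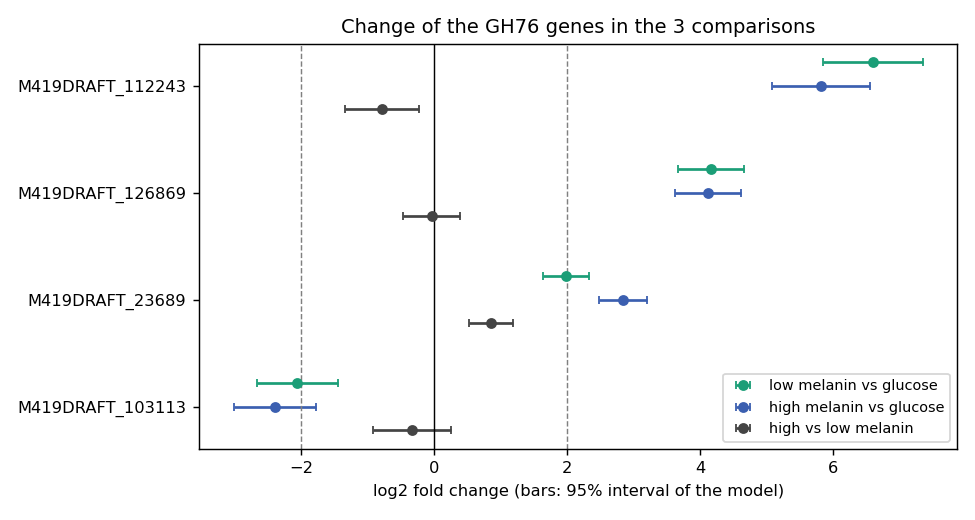
Log2 fold change of each GH76 gene in the 3 comparisons, with the 95% interval of the model of all 9 libraries; dashed lines mark a change of 2 in either direction. The intervals of M419DRAFT_23689 on low melanin necromass and of M419DRAFT_103113 on both necromass types include the fold threshold.

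The ratio of a pair of genes within a library needs neither library scaling nor gene length when it is compared between libraries, so it shows directly whether the members moved apart. From glucose to low melanin necromass, the count of M419DRAFT_112243 relative to M419DRAFT_103113 was higher by 8.62 on the log2 scale, and relative to M419DRAFT_126869 by 2.47. From low to high melanin necromass, each of the other genes was lower relative to M419DRAFT_23689, with differences of −1.69 for M419DRAFT_112243, −1.20 for M419DRAFT_103113 and −0.91 for M419DRAFT_126869, and in none of these pairs did the libraries of the necromass types overlap. Over the 6 pairs of genes and 3 comparisons, 15 of 18 ratios separated the substrates without overlap, which gives an exact two-sided permutation p of 0.1, the smallest that 3 libraries against 3 allow (adjusted p = 0.12 over the 18 tests). This design therefore cannot reach 0.05 in this test. The other 3 ratios were those among M419DRAFT_112243, M419DRAFT_126869 and M419DRAFT_103113 between the necromass types, with differences of −0.78, −0.49 and 0.29 and exact permutation p values of 0.2, 0.3 and 0.4.

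The observed spread over the 3 cultures of a substrate also differed among the members, which was not tested. On high melanin necromass the coefficient of variation was 31.6% for M419DRAFT_112243 and 20.2% for M419DRAFT_126869, above that of 94.99% and 87.2% of genes. It was 7.73% for M419DRAFT_23689 and 9.04% for M419DRAFT_103113, near the median of all genes. On glucose M419DRAFT_103113 was the most variable of the 4, at 41.7%, while M419DRAFT_112243 stood at 33.0% and the others at 19.9% and 19.0%. The first 2 lay above 84.4% and 76.7% of genes there, and the others near the median. On low melanin necromass it ran from 6.17% for M419DRAFT_103113 to 16.4% for M419DRAFT_126869. In the high melanin libraries M419DRAFT_112243 held 58.6 CPM in replicate 2, against 102 and 113 CPM in replicates 1 and 3.

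Enzymes that shorten α-mannan from its ends or cut its side chains were taken as a first list. They were α-1,2-mannosidases of GH47, exo-acting α-mannosidases of GH92 and an exo-α-1,6-mannosidase of GH125. M419DRAFT_24645 (GH47) has no entry in the annotation copy, and its family was taken as given with the list. The 8 genes of this list were also picked by the study for differing among substrates. Against glucose, 6 of them were called up with low and 8 with high melanin necromass, and none was called down, beside the 12.0% and 13.5% called up and the 7.18% and 8.80% called down over all genes. Their log2 fold changes ran from 1.93 to 5.94 (median 2.96) with low and from 2.10 to 5.88 (median 3.51) with high melanin necromass. M419DRAFT_103113 lay below both spans and the low melanin change of M419DRAFT_112243 above. M419DRAFT_25615 (GH92) had the largest fold changes of the 8, with 2.23 ± 0.288 CPM on glucose (SD, n = 3) and 137 ± 4.71 and 132 ± 34.3 CPM on low and high melanin necromass. Between the necromass types, 1 of the 8 differed at an adjusted p under 0.05, a share near that over all genes (5.26% higher and 3.93% lower). This gene, M419DRAFT_71164 (GH92), was higher on high melanin necromass. It held 197, 179 and 172 CPM there and 68.9, 104 and 67.5 CPM on low melanin necromass (log2 1.19, SE 0.16, adjusted p = 0.00373 by edgeR). The exo-α-1,6-mannosidase gene M419DRAFT_12995 (GH125), whose product acts on the same linkage as GH76, had a difference of −0.42 (SE 0.21, adjusted p = 0.245 by edgeR).

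Hydrolases of β-mannan, the mannose polymer of plant cell walls, were taken as a second list. The endo-β-1,4-mannanase gene M419DRAFT_122377 (GH5_7) went from 1.59 to 537 and 571 CPM on low and high melanin necromass, and the GH2 genes M419DRAFT_93487 and M419DRAFT_12549, tagged as β-mannosidases, changed by 5.90 and 2.84 on low and 6.32 and 3.64 on high melanin necromass on the log2 scale. The glucose level of M419DRAFT_122377 was 0.296% of its low melanin level, inside the range of 0.272% to 0.306% given above for the lowest shares, and whether reads from other libraries enter it was not tested. All 3 were called up against glucose on both necromass types, beside 12.0% of all genes with low and 13.5% with high melanin necromass. They too were among the genes that the study picked. Between the types 0 of the 3 differed at an adjusted p under 0.05 by edgeR, beside 5.26% higher and 3.93% lower over all genes. The smallest p of the 3 was that of M419DRAFT_12549 (0.0101 unadjusted and 0.0781 adjusted, by edgeR). By DESeq2, 1 of the 3 had an adjusted p under 0.05, as did 1428 of the 9312 genes tested.

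The families that build mannan did not move in one direction. The list held 7 genes of GT15, GT32 and GT71, families that in S. cerevisiae contain the mannosyltransferases Kre2, Och1 and Mnn1. They were likewise picked for differing. Low melanin necromass had 3 of them called up and 3 down, with a median log2 fold change of −1.88, and high melanin necromass had 2 up and 4 down, with a median of −3.62. Over all genes 12.0% were up and 7.18% down with low and 13.5% up and 8.80% down with high melanin necromass. Between the necromass types, 2 of the 7 were higher and 3 lower on high melanin necromass at an adjusted p under 0.05 by edgeR. Over all genes 5.26% were higher and 3.93% lower. M419DRAFT_91596 (GT15) rose from 2.93 CPM on glucose to 123 and 336 CPM on low and high melanin necromass. Its change between the necromass types was 1.45 (SE 0.12, adjusted p = 0.000556 by edgeR). Among the GT32 genes tagged as initiation-specific α-1,6-mannosyltransferases, M419DRAFT_124397 rose from 2.47 CPM on glucose to 583 and 681 CPM, whereas M419DRAFT_140614 fell from 138 CPM to 5.40 and 8.61 CPM. The largest fall of the list was that of M419DRAFT_108458 (GT32), from 304 CPM to 1.41 and 0.195 CPM (log2 −7.74 and −10.6). It had 0 to 9 counts per high melanin library. Opposed changes within 1 family were therefore found in GT32 as in GH76. The glucose level of M419DRAFT_124397 was 0.424% of its low melanin level, and whether reads from other libraries enter it was not tested.

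**Figure D3:**
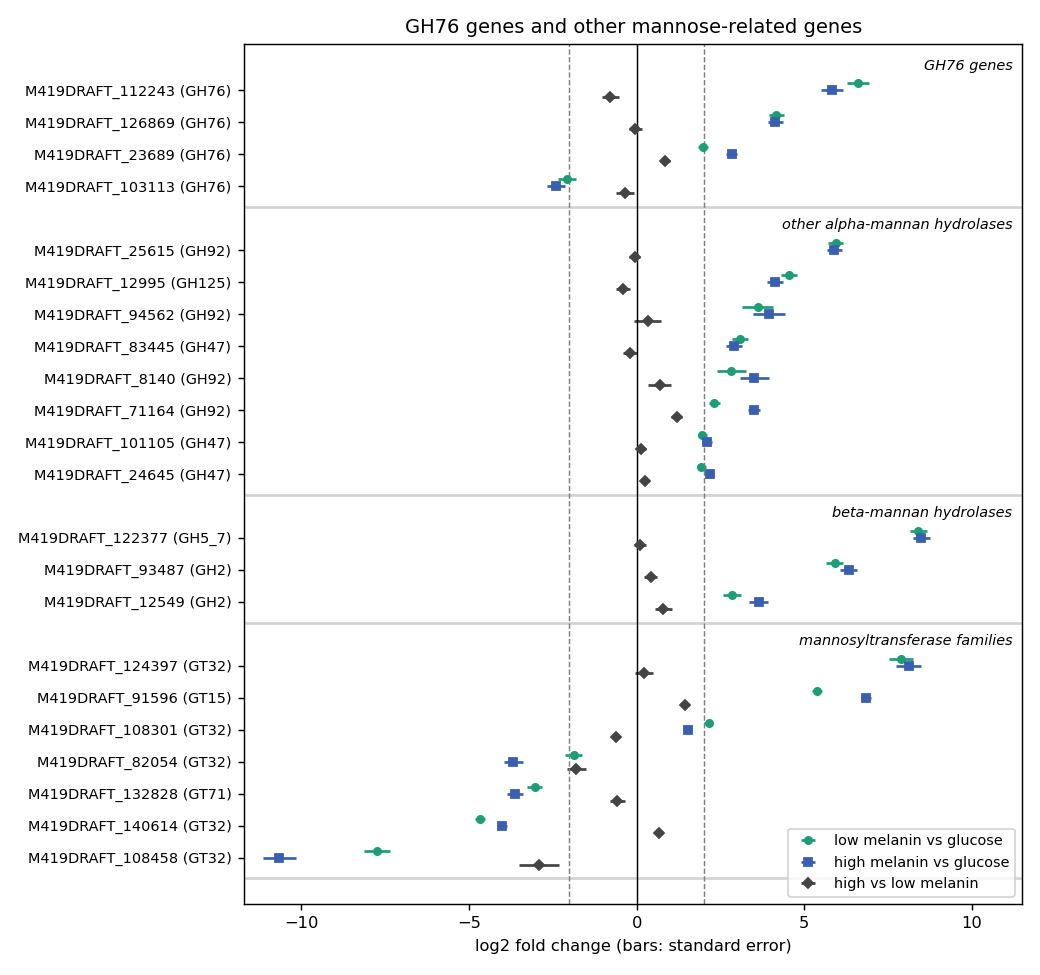
Log2 fold change, with its standard error, of the 4 GH76 genes and of 18 other mannose-related genes in the 3 comparisons; dashed lines mark a change of 2. All 11 other hydrolase genes lie to the right of 0 against glucose, and M419DRAFT_103113 and 4 glycosyltransferase genes lie to the left.

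To find genes with a like pattern, each gene's log2 CPM was centred on its mean over the 9 libraries and compared with each GH76 gene by the root mean square difference. Among the GH76 genes the differences ran from 0.95 (M419DRAFT_126869 and M419DRAFT_23689) to 3.97 (M419DRAFT_112243 and M419DRAFT_103113). This measure counts the size of a change as well as its shape. Genes that rise together by unlike amounts, as M419DRAFT_112243, M419DRAFT_126869 and M419DRAFT_23689 did on necromass, therefore lie apart. Each GH76 gene had closer genes outside the family. Of the 9308 others, M419DRAFT_121593, tagged as the glycolytic enzyme glyceraldehyde-3-phosphate dehydrogenase, was closest to M419DRAFT_103113, at 0.15. It went from 4891 CPM on glucose to 1224 and 872 CPM on low and high melanin necromass. The order of the glucose cultures was the same in both genes, but choosing the closest gene over these same libraries favours such a match. M419DRAFT_121593 ranked 15, 3 and 9 when glucose replicate 1, 2 or 3 was left out, and 2 without high melanin replicate 2. The annotation copy is shortened, so CAZyme genes without an entry were not candidates. The closest of the 137 other genes with a CAZyme tag in it was M419DRAFT_136875 of GH16, a family of β-glucan hydrolases and wall transglycosylases, at 0.26, and it stayed first with any 1 library left out.

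For M419DRAFT_23689 the closest gene was M419DRAFT_47915, tagged with the JmjC domain of histone demethylases, at 0.11, and it went from 5.67 CPM on glucose to 24.3 and 42.6 CPM. Its closest CAZyme gene was M419DRAFT_75171 (GH13_40), at 0.15. M419DRAFT_126869 was closest to M419DRAFT_94624, at 0.20, and among CAZyme genes to M419DRAFT_77360 (AA3_2) at 0.23, although M419DRAFT_77360 averaged only 0.270 CPM on glucose. M419DRAFT_112243 was closest to M419DRAFT_138500, which has no annotation here and had 1 to 3 counts per glucose library, at 0.34. Its closest CAZyme gene was M419DRAFT_111943 (GH74, a family of xyloglucan hydrolases), at 0.40, which went from 26.6 CPM on glucose to 3043 and 1909 CPM on low and high melanin necromass. These distances are a description over 9 libraries in which the substrates separate most genes, and they say nothing of shared function.

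**Figure D4:**
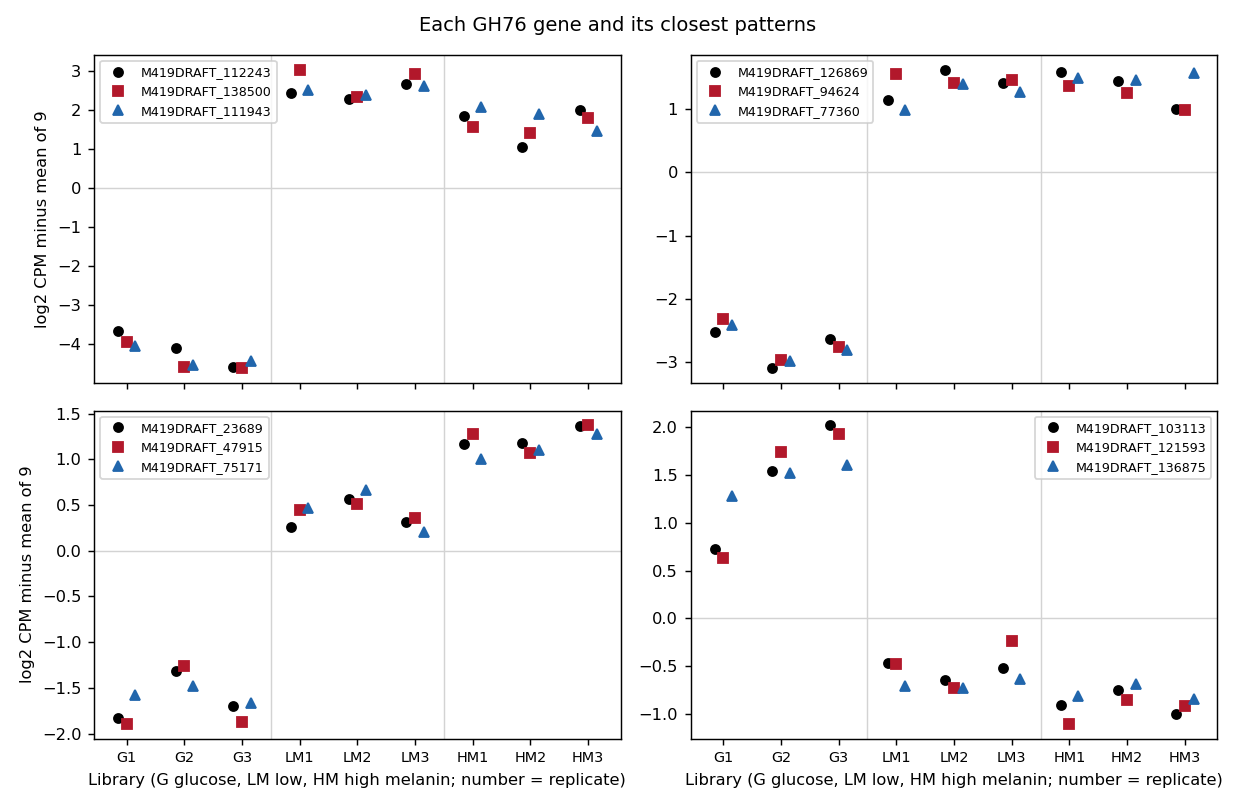
Log2 CPM minus the gene's mean over the 9 libraries, for each GH76 gene (black circles), its closest gene of all (red squares) and its closest gene with a CAZyme tag (blue triangles). M419DRAFT_103113 and M419DRAFT_121593 share their order over the glucose cultures, and the points of M419DRAFT_23689 and M419DRAFT_47915 differ by a root mean square of 0.11. The closest genes were chosen over these same libraries, which favours such likeness.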

How the data were processed

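Per the submitters' notes and the study's methods, trimmed reads were assigned to RUT-C30 transcripts with kallisto (version 0.48.0), and the authors deposited estimated counts per gene, unscaled and rounded to whole numbers. kallisto divides reads shared by similar transcripts by estimation, which can affect close paralogs. The samples were grouped by their titles. Genes that reached 10 counts in 3 or more libraries were fitted with edgeR version 4.0.16 (R version 4.3.3, TMM factors, quasi-likelihood test) in 1 model of all 9 libraries. The SE is the size of the log2 fold change divided by the root of F. The test of low melanin necromass against glucose was checked on simulated data with the same dispersion in all substrates. The unequal spread of the substrates and small changes between the necromass types were not checked in this way. Exact permutation tests of log2 count ratios used a prior count of 0.5, and patterns used log2 CPM with a prior count of 2. Plots used matplotlib version 3.10.9. Alternatives were RLE or upper-quartile factors, no filter, DESeq2 version 1.42.0, a fit of the compared groups alone, glmTreat, a block for the replicate number, and leaving out every library in turn. The genes and lists were chosen with earlier results of these data known. Named are the 4 members, the listed mannose genes, and for each member the closest gene of all and the closest with a CAZyme tag. CAZyme and other tags come from a shortened copy of the study's annotation of genes that it called. M419DRAFT_23689 and M419DRAFT_24645 have no entry there, and their families were taken as given with the gene lists. No gene lengths or sequences were used.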

Additional observations from a re-analysis of the deposited data

How the results depend on the processing

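Against glucose, 2 to 4 GH76 genes were called on low and 3 to 4 on high melanin necromass over the alternatives run, and glmTreat, which tests against a log2 fold change of 2, moved all calls on low melanin necromass to 1144. M419DRAFT_103113 was no longer called on either necromass type with glmTreat. High versus low melanin necromass was less stable. The number of GH76 genes at an adjusted p under 0.05 was 2 with DESeq2, 3 when only both necromass types were fitted and 0 with glmTreat, and ran from 0 to 2 with 1 library left out. Over all genes that number was 856 in the fit of all libraries, 1428 with DESeq2, 2909 with only the groups compared and 2 with glmTreat, and ran from 257 to 2371 with 1 library left out. Of the other α-mannan hydrolases 3 passed with only the groups compared and 0 with glmTreat (1 to 3 with 1 library left out). Of the β-mannan hydrolases 1 passed with DESeq2 and 1 with only the groups compared (0 to 1), and of the mannosyltransferases 0 with glmTreat (2 to 6). Small differences between the necromass types changed sign, that of M419DRAFT_126869 to 0.07 without low melanin replicate 2 and 0.10 without high melanin replicate 3 (lowest −0.16, highest 0.10 over single libraries left out), that of M419DRAFT_122377 to −0.053 without low melanin replicate 1 (range −0.053 to 0.27) and that of M419DRAFT_25615 to 0.11 without high melanin replicate 3 (range −0.24 to 0.11). The causes were not tested.

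With the replicate number as a block, 551 genes differed between the necromass types, and 1779 and 2079 were called against glucose. Correlations of same-numbered deviations ran from −0.17 to 0.08, and 0 of 9 libraries correlated best with their own number in both other substrates. With 3 cultures per substrate, this cannot show whether the cultures were paired. The block changed no call of a GH76 gene.

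With a prior count of 0.5 M419DRAFT_138500 ranked 27 for M419DRAFT_112243. With 1 library left out the ranks of the closest genes ran from 1 to 3 for M419DRAFT_138500, 1 to 2 for M419DRAFT_111943, 1 to 6 for M419DRAFT_94624, 1 to 3 for M419DRAFT_77360, 1 to 15 for M419DRAFT_121593 and 1 to 2 for M419DRAFT_47915.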
